A study of Mus musculus with 2 samples.

Results

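The genes described here are the tumour necrosis factor (TNF) ligands and receptors that carry a numbered family symbol, other than the 3 receptors Tnfrsf4, Tnfrsf9 and Tnfrsf18. They were chosen by symbol alone, as autosomal protein-coding genes of the GENCODE annotation named Tnfsf (ligands) or Tnfrsf (receptors) followed by a number. This gave 28 of 20807 autosomal protein-coding genes, of which 17 were receptors and 11 were ligands. The measurement was H3K4me3, the histone mark of active and poised promoters, in lung group 2 innate lymphoid cells (ILC2s). It was profiled by CATCH-seq, in which unfixed chromatin of few cells is cut with micrococcal nuclease and precipitated together with carrier DNA. Each library was made from about 3000 ILC2s of 8-week-old mice. In the F1PBS group the mothers had received PBS with alum intraperitoneally on day -21 and day -7 and PBS intranasally between gestation days 4 and 17. In the F1OVA group the mothers had received ovalbumin (OVA) with alum on the same days and OVA intranasally during the same part of gestation, and are called asthmatic mothers. All mothers thus received alum, all were mated with untreated males, and the labels give no treatment of the offspring themselves. There was 1 library per group, so no value has a replicate and no difference between the groups could be tested. The offspring of each group came from a single dam, so the dam and her treatment cannot be told apart, and the number of offspring behind each library is not given in the sources used here.

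TNF family ligands are mostly membrane-bound trimers, and several are also shed in soluble form. Their receptors signal through TRAF adaptors to NF-κB and MAP kinases, and those with a death domain can also recruit FADD and caspase-8. Some receptors are decoys that bind a ligand without passing on a death signal. In lung type 2 immunity the family is known for co-stimulation. The receptor Tnfrsf25 (DR3) responds to Tnfsf15 (TL1A) on ILC2s, and Tnfsf4 (OX40 ligand), Tnfsf18 (GITR ligand), Tnfsf8 (CD30 ligand) and Tnfsf9 are ligands through which ILC2s or antigen-presenting cells and T cells can address each other.

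Each library had its own list of peaks as deposited, with 42126 peaks in F1PBS and 51610 in F1OVA. A peak within 1000 bp of any annotated transcript start of a gene is called a start peak of that gene. The lists hold peaks only, so a weaker signal than the caller accepted is invisible, and a missing peak does not show that the mark is absent. Of the 9 ILC2 marker genes, 7 had a start peak in F1PBS and 5 in F1OVA. Icos and Klrg1 had none in either list, and Gata3 and Il7r had none in F1OVA. No start peak was listed for any of the 6 T cell, 5 B cell, 5 macrophage, 5 neutrophil or 5 fibroblast markers in either list. Of the 5 epithelial markers, Cdh1 and Epcam had a start peak in F1PBS and Sftpb in F1OVA, and of the 5 endothelial markers Kdr had one in F1PBS. Lung ILC2s were sorted in the study as CD45+ Lin- ST2+ cells. The part of any epithelial or endothelial cells in the results below was not tested.

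In F1PBS, 16 of the 28 family genes had a start peak (57.1%, exact Clopper-Pearson 95% interval 37.2 to 75.5%), where 52.5% of all autosomal protein-coding genes had one. In F1OVA, 10 of 28 had one (35.7%, interval 18.6 to 55.9%), where the share of all genes was 43.7%. Both intervals hold the share of all genes, so neither count stands apart from that share. It was not matched for CpG content, which is set out below. Receptors with a start peak were 11 of 17 in F1PBS and 7 of 17 in F1OVA. Ligands with a start peak were 5 of 11 in F1PBS and 3 of 11 in F1OVA. The 10 genes with a start peak in F1OVA were among the 16 of F1PBS. The 6 genes listed in F1PBS only made up 21.4% of the family (interval 8.30 to 41.0%), where 9.37% of all genes were in F1PBS only. No family gene was listed in F1OVA only (interval 0 to 12.3%), where 0.634% of all genes were. With each list kept to its 10000 peaks of highest −log10 p, 8 of the 28 had a start peak in F1PBS, where 33.8% of all genes did. The 2 that then had one in F1OVA, where 9.82% of all genes did, were Tnfrsf1b and Tnfrsf21. Intervals cover counting error only.

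**Figure D1:**
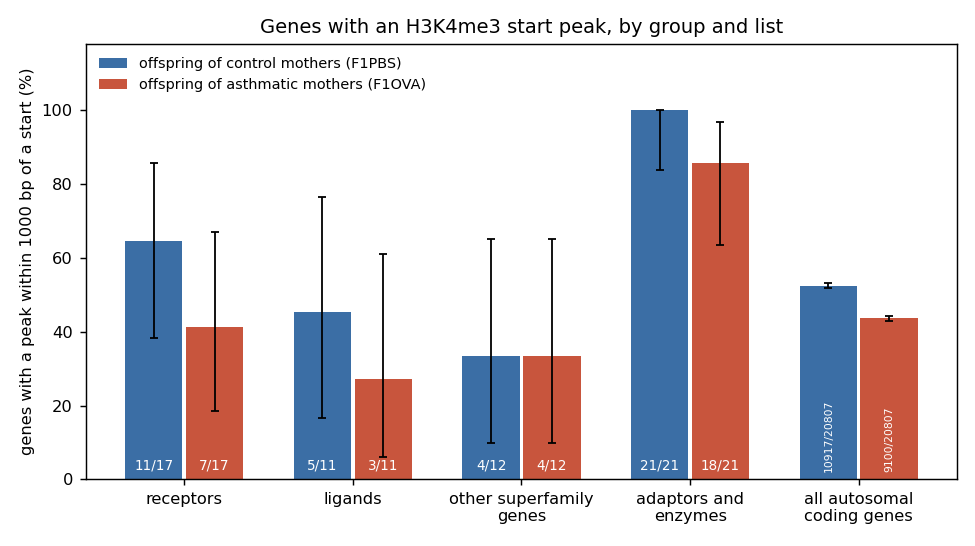
Share of genes (vertical axis, %) with an H3K4me3 peak within 1000 bp of a transcript start in the F1PBS list (blue) and the F1OVA list (red), for receptors, ligands, other superfamily genes, adaptors and enzymes, and all autosomal protein-coding genes. Bars are shares with exact 95% Clopper-Pearson intervals and the counts inside them; the adaptors and enzymes stood at 21 and 18 of 21, while receptors and ligands lay around the share of all genes.

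The genes in both lists were the receptors Tnfrsf1b, Tnfrsf10b, Tnfrsf11a, Tnfrsf14, Tnfrsf21, Tnfrsf22 and Tnfrsf25 and the ligands Tnfsf10, Tnfsf11 and Tnfsf14. The receptors Tnfrsf1a, Tnfrsf12a, Tnfrsf23 and Tnfrsf26 and the ligands Tnfsf9 and Tnfsf12 were in F1PBS only. Neither list had a start peak for the receptors Tnfrsf8, Tnfrsf11b, Tnfrsf13b, Tnfrsf13c, Tnfrsf17 and Tnfrsf19 or for the ligands Tnfsf4, Tnfsf8, Tnfsf13, Tnfsf13b, Tnfsf15 and Tnfsf18. Across the family, 43.1% of all genes set the background for a peak in both lists and 46.9% that for a peak in neither, and the family stood at 10 and 12 of 28.

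The promoters below are shown because they span this range: 3 with a start peak that ranked high in at least 1 list, 2 with a peak in F1PBS only and 3 with none. Each is the 250 bases before the RefSeq start on GRCm38.p6, written 5′ to 3′ along the gene's strand, with every CG dinucleotide in capitals, since H3K4me3 is known to lie mostly at CpG-rich starts. RefSeq promoters were matched for 21 of the 28 genes by symbol.
Tnfrsf1b (peak in both lists, chr4:145246871-145247120, minus strand): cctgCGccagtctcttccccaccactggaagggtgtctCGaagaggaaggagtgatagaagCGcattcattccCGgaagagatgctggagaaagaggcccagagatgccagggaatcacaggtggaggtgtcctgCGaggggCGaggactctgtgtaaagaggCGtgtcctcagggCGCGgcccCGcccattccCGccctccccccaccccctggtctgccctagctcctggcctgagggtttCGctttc
Tnfrsf21 (peak in both lists, chr17:43016305-43016554, plus strand): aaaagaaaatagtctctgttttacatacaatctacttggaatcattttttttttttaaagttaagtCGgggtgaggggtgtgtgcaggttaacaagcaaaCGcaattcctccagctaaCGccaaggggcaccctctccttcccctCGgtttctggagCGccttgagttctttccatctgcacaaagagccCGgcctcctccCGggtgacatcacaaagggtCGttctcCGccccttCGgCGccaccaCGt
Tnfsf14 (peak in both lists, chr17:57194182-57194431, minus strand): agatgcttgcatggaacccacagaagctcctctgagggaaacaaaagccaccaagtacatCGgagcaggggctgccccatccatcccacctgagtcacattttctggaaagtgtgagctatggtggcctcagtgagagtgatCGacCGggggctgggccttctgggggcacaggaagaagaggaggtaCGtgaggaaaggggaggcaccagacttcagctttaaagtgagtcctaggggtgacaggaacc
Tnfrsf12a (peak in F1PBS only, chr17:23677450-23677699, minus strand): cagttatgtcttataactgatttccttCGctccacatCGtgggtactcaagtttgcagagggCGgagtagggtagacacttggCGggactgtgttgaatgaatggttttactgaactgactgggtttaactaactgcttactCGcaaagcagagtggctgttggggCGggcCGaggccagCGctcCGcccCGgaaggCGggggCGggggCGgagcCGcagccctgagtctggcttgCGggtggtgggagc
Tnfrsf23 (peak in F1PBS only, chr7:143685876-143686125, minus strand): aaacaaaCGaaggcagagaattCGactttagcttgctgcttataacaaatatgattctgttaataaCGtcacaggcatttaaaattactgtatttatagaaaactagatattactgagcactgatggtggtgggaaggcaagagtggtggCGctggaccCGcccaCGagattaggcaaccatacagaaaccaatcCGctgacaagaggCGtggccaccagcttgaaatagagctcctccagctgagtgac
Tnfrsf19 (no peak, chr14:61046856-61047105, minus strand): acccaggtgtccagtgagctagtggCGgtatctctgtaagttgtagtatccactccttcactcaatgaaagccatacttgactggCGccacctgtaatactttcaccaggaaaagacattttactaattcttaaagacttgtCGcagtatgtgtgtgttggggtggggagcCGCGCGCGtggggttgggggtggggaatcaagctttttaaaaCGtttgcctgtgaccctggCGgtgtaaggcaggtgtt
Tnfrsf17 (no peak, chr16:11313559-11313808, plus strand): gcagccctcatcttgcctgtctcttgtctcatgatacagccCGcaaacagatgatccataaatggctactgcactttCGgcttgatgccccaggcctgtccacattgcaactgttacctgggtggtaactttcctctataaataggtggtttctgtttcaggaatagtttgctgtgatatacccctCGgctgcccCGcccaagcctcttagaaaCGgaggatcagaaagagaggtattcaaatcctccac
Tnfsf18 (no peak, chr1:161494407-161494656, plus strand): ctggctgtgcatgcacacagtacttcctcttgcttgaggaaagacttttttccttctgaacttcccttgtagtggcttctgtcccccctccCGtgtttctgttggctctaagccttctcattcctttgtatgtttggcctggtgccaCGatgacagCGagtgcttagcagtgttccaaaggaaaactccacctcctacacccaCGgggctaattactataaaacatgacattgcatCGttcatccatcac

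These promoters held 12 CG in Tnfrsf1b, 12 in Tnfrsf21, 4 in Tnfsf14, 15 in Tnfrsf12a, 8 in Tnfrsf23, 9 in Tnfrsf19, 5 in Tnfrsf17 and 5 in Tnfsf18. The median was 6 over all autosomal promoters of the RefSeq table and 8 over the 24 promoters of family genes in it. The most CG-rich of the 8, Tnfrsf12a, had the lowest-ranked start peak of the family, and the one with the fewest, Tnfsf14, had the highest-ranked in F1PBS. The RefSeq start of Tnfrsf19 lies 365 bp from the 5′ end that GENCODE gives.

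Among the receptors, Tnfrsf1b, which encodes the TNF receptor TNFR2, had the highest-ranked start peaks. Its F1PBS peak (chr4:145246231-145246891, 661 bp) had a −log10 q of 22.2 and its F1OVA peak (chr4:145246378-145246844, 467 bp) one of 15.2. Because the lists are not scaled to each other, each gene was ranked by the −log10 q of its strongest start peak among all genes with a start peak in the same list. On this scale, Tnfrsf1b stood at percentile 92.0 in F1PBS and 96.1 in F1OVA. Both peaks overlapped exon 1. The summit, the position of highest signal, was 158 bp and 126 bp downstream of the start. The fold over the caller's background was 9.12 in F1PBS and 8.37 in F1OVA.

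Tnfrsf21, the death receptor DR6, had a wide F1PBS peak of 1025 bp (chr17:43016491-43017515) at percentile 50.4, with a −log10 q of 13.9. Its F1OVA peak of 503 bp (chr17:43016776-43017278) lay wholly within that one and stood at percentile 89.0, with a −log10 q of 12.6. By fold it stood at 55.8 and 92.2, but by peak width at 94.9 and 78.7, so the order of the lists turned with the measure. Tnfrsf25, the receptor for TL1A known from ILC2 co-stimulation, had 2 separate start peaks in each list. In F1PBS they spanned chr4:152115807-152116622 and chr4:152116773-152117409, with 37 and 26 fragments at the summits. In F1OVA they spanned chr4:152116074-152116657 and chr4:152116744-152117051, with 21 and 17 fragments. The stronger of them lay at the annotated starts, covering 3 of 4 starts in F1PBS and 2 of 4 in F1OVA, and the weaker lay over exons 2 to 4 in F1PBS and exons 2 and 3 in F1OVA. Tnfrsf25 stood at percentile 58.7 in F1PBS and 51.1 in F1OVA by −log10 q, but at 20.2 and 23.6 by fold and at 84.2 and 88.3 by peak width.

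Tnfrsf11a (RANK, the receptor of Tnfsf11) stood at percentile 68.7 in F1PBS and 39.8 in F1OVA. In F1PBS it had 1 peak (chr1:105780720-105781089), which covered 1 of its 3 annotated starts and began just downstream of its 5′ end. F1OVA listed 2, of which the stronger (chr1:105780408-105780614) lay upstream of the gene with its summit at -220 bp from the start and overlapped no F1PBS peak. The weaker (chr1:105780748-105780945) lay within the F1PBS peak, and its summit was 2 bp from that of F1PBS. Tnfrsf10b, a TRAIL receptor with a death domain, stood at percentile 31.6 in F1PBS (chr14:69767521-69768178) and 22.5 in F1OVA (chr14:69767566-69768079). Tnfrsf14 (HVEM, a receptor of Tnfsf14) was low in both lists, at percentile 19.3 in F1PBS (chr4:154927898-154928163) and 8.55 in F1OVA (chr4:154927766-154928008). Its peaks overlapped by 111 bp, which was 41.7% of the F1PBS peak and 45.7% of the F1OVA peak.

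Tnfrsf22, which encodes a decoy TRAIL receptor, was in both lists only by count. Its F1PBS peak (chr7:143649147-143649660) lay over exon 1 at the 5′ end and stood at percentile 70.4. The F1OVA peak (chr7:143636067-143636266) lay with its summit 13529 bp downstream of the 5′ end, 453 bp from the start of an internal transcript, and stood at percentile 13.8. Repeat-masked bases made up 100% of that F1OVA peak, and the 75 bases around its summit had 67 exact copies elsewhere on the assembled chromosomes. Counted by its 5′ end alone, Tnfrsf22 had a start peak in F1PBS only, and the receptors in F1OVA were then 6 of 17.

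**Figure D2:**
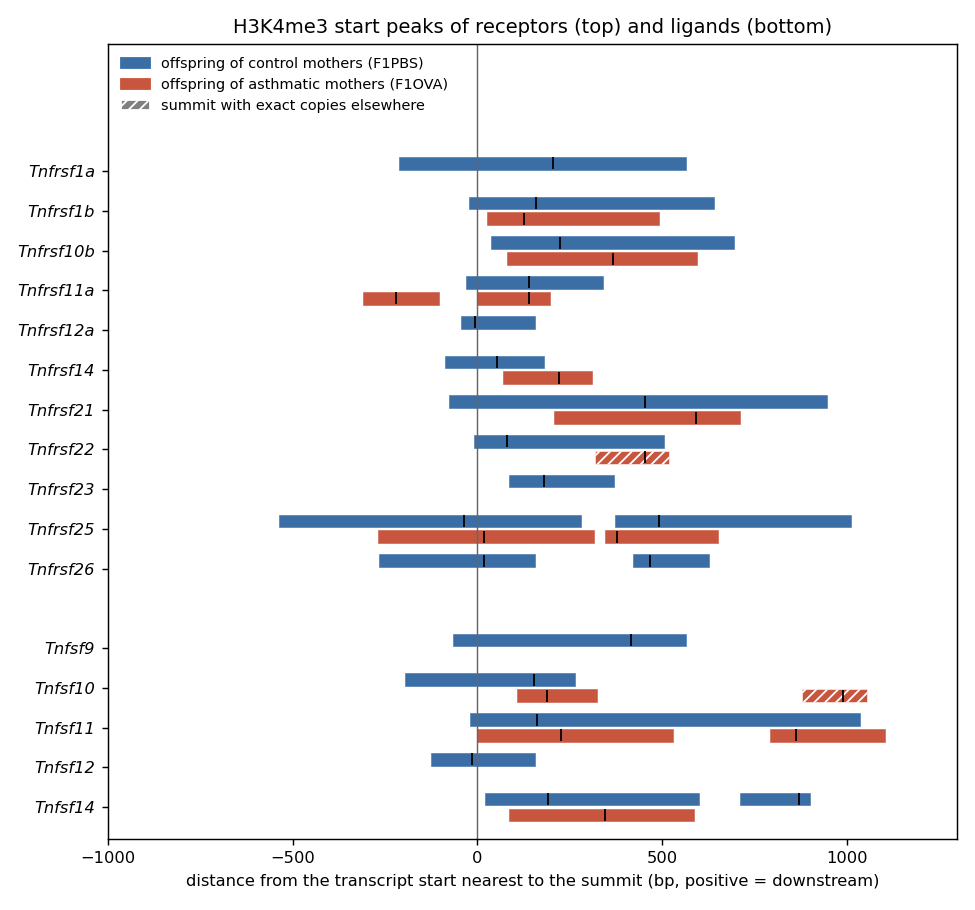
Start peaks of the 16 family genes that had any, drawn as bars against distance (horizontal axis, bp) from the transcript start nearest to each summit, with F1PBS in blue and F1OVA in red. Black ticks are summits, and hatched bars are peaks whose summit sequence has exact copies elsewhere; the bar of Tnfrsf22 in F1OVA belongs to an internal start, and in 9 genes the lists overlap.

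The 4 receptors listed in F1PBS only ranked low in that list. Tnfrsf1a (TNFR1, the death-domain receptor of TNF) had a peak of 776 bp (chr6:125349511-125350286) with a fold of 6.37, a −log10 q of 9.95 and 20 fragments at its summit, at percentile 23.5. Tnfrsf12a (Fn14, the receptor of Tnfsf12) had a peak of 202 bp (chr17:23677273-23677474) with a fold of 3.87, a −log10 q of 4.19 and 15 fragments, at percentile 1.06. Tnfrsf23, a decoy TRAIL receptor, had a peak of 284 bp (chr7:143685502-143685785) with a fold of 5.31, a −log10 q of 6.21 and 14 fragments, at percentile 6.40. Tnfrsf26, a related receptor gene known from the mouse, had 2 peaks. The stronger (chr7:143627798-143628219) had a fold of 5.80, a −log10 q of 8.63 and 19 fragments, at percentile 16.0, and lay over a start within the gene record, with its summit 786 bp downstream of the 5′ end. The weaker (chr7:143627327-143627531) had a −log10 q of 4.10, 13 fragments and 100% repeat-masked bases. Both lay near a start of the antisense gene E230032D23Rik, and the peaks carry no strand, so they cannot be told apart from a peak of that gene. Each of the 4 receptors thus stood at percentile 23.5 or below among the F1PBS start genes.

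Of the ligands, Tnfsf14 (LIGHT, which binds Tnfrsf14 and the lymphotoxin β receptor) had the highest-ranked peak of the family in F1PBS, at percentile 92.9. This peak (chr17:57193578-57194155) had a −log10 q of 22.6 and 42 fragments at the summit, the most of any family gene. A second F1PBS peak (chr17:57193277-57193466) lay in the gene with 20 fragments. In F1OVA, Tnfsf14 had 1 peak (chr17:57193590-57194091) with a −log10 q of 7.24 and 19 fragments, at percentile 38.7, and it lay wholly within the stronger F1PBS peak.

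Tnfsf11 (RANKL) had the widest peak of the family, 1056 bp in F1PBS (chr14:78307008-78308063), at percentile 45.4. F1OVA listed 2 peaks there (chr14:78307515-78308044 and chr14:78306941-78307251), both overlapping the F1PBS peak, and the gene stood at percentile 64.2. Tnfsf10 (TRAIL) stood at percentile 31.5 in F1PBS (chr3:27316866-27317325) and 8.43 in F1OVA. Its higher F1OVA peak (chr3:27317939-27318116) lay in an intron, 878 bp from the nearest start. The lower (chr3:27317168-27317384), with a −log10 q of 3.86, overlapped the F1PBS peak. The stretch around the summit of the intronic peak is shown because it has 70 exact copies elsewhere, so reads from it could have been placed at any of these sites. It has no CG and is given on the plus strand of GRCm38.p6.
Tnfsf10 intron (chr3:27318015-27318089): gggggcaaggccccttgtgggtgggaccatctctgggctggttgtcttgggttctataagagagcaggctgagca

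Both ligands listed in F1PBS only had a start of another gene close to their peak. Tnfsf9 (the ligand of Tnfrsf9) had a peak of 629 bp (chr17:57105260-57105888) with a fold of 7.81, a −log10 q of 15.4 and 27 fragments, at percentile 60.6. A start of the long non-coding RNA Gm11110 lay within 1000 bp of it. Tnfsf12 (TWEAK) had a peak of 281 bp (chr11:69695695-69695975) with a fold of 6.43, a −log10 q of 9.30 and 18 fragments, at percentile 19.5, and the gene shares this start region with Tnfsfm13, a read-through gene that joins it to Tnfsf13. In F1OVA the nearest peak to Tnfsf9 was 26929 bp away and that to Tnfsf12 was 13598 bp away.

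How often a peak of the same strength had no partner in the other list differed among the 6 genes listed in F1PBS only. For Tnfsf9, of 656 F1PBS start peaks with a −log10 q within 0.5 of its own, 7.32% overlapped no F1OVA peak (interval 5.44 to 9.58%). For Tnfsf12 the share was 41.1%, for Tnfrsf1a 34.6%, for Tnfrsf26 45.6%, for Tnfrsf23 66.2% and for Tnfrsf12a 81.7%. The peaks of Tnfrsf12a and Tnfrsf23 were thus of a strength at which most F1PBS start peaks had no F1OVA partner. Tnfsf9 was of a strength at which few lacked one, and so was the 5′ peak of Tnfrsf22, with 6.27% of 622. Of the 19 F1PBS start peaks of the family, 10 overlapped an F1OVA peak (52.6%, interval 28.9 to 75.6%), where 70.9% of all 12446 F1PBS start peaks did. Of the 14 F1OVA start peaks of the family, 11 overlapped an F1PBS peak (78.6%, interval 49.2 to 95.3%), where 95.9% of all 9927 did. The other 3 were the repeat-masked peaks of Tnfrsf22 and Tnfsf10 and the upstream peak of Tnfrsf11a. Without the peaks of Tnfrsf22 and Tnfsf10, whose summits have exact copies elsewhere, it was 11 of 12. That step was chosen after the data had been seen and was applied to family peaks alone. The 11 of 12 thus has no like share of all start peaks.

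**Figure D3:**
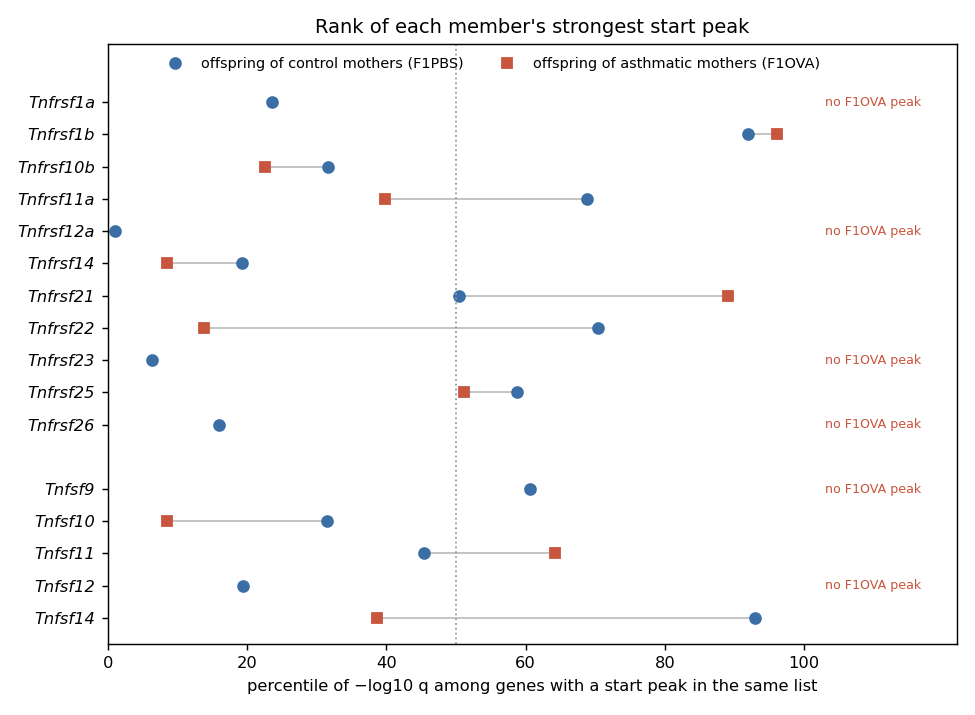
Percentile (horizontal axis) of the −log10 q of each family gene's strongest start peak among all genes with a start peak in the same list, for F1PBS (blue circles) and F1OVA (red squares). The dotted line is the middle of each list; Tnfrsf1b is above 90 in both, Tnfsf14 and Tnfrsf22 are far lower in F1OVA, Tnfrsf21 is far higher, and 6 genes have no F1OVA point.

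The median percentile was 31.6 for the 11 receptors and 45.4 for the 5 ligands with a start peak in F1PBS. In F1OVA it was 39.8 for 7 receptors and 38.7 for 3 ligands. To compare ranks over the same genes, percentiles were also taken among the 8968 genes with a start peak in both lists. From F1PBS to F1OVA, 3 of the 10 family genes then stood higher and 7 lower. The shift was 46.7 points for Tnfrsf21, 27.0 for Tnfsf11 and 5.60 for Tnfrsf1b. It was -53.5 points for Tnfsf14, -51.8 for Tnfrsf22, -24.0 for Tnfrsf11a and -13.8 for Tnfsf10. In the last 3 the strongest F1OVA peak overlaps no F1PBS peak, so their shifts compare different sites. For Tnfrsf14 it was -2.34, for Tnfrsf25 -1.06 and for Tnfrsf10b -0.095. The middle 95% of all 8968 genes spanned -62.8 to 61.1 points, and every family gene lay within it. At the lower end, 4.81% of genes were shifted further down than Tnfsf14 and 5.32% further than Tnfrsf22. At the upper end, 93.5% of genes had a lower shift than Tnfrsf21. Peak width and fold were ranked only within each list, not over the 8968 genes. On the within-list scale, −log10 q also put 3 of the 10 higher and 7 lower. By peak width on that scale 6 turned direction, namely Tnfsf11, Tnfsf14, Tnfrsf10b, Tnfrsf14, Tnfrsf21 and Tnfrsf25. By fold Tnfrsf25 alone did.

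The number of fragments behind each peak was solved from the fold and −log10 p that the authors give, and is a derived value. At the strongest start peaks of the family it ran from 14 to 42 in F1PBS and from 12 to 25 in F1OVA, over a caller's background of 1.83 to 5.59 and 1.57 to 3.74 fragments. Numbers of this size carry wide counting error, such as 42 fragments in Tnfsf14 with an exact Poisson 95% interval of 30.3 to 56.8, or 15 in Tnfrsf12a with 8.40 to 24.7. In 9 genes a start peak of one list overlapped one of the other, and in all 9 the F1OVA summit had fewer fragments and the F1OVA peak was narrower. The ratio of F1OVA to F1PBS fragments ran from 0.40 in Tnfrsf11a to 0.80 in Tnfrsf21. Over 2000 start peaks drawn from each list the medians were 25 fragments in F1PBS and 16 in F1OVA, a ratio of 0.64. The 95% intervals of all 9 family ratios held this value, so at this depth no family ratio could be told from it. The 2 are unlike measures. The family ratios are from overlapping peaks, while the draws were made from each list apart and include start peaks without a partner. A ratio over all overlapping start peaks was not taken. The median width of all start peaks was 477 bp in F1PBS and 321 bp in F1OVA.

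**Figure D4:**
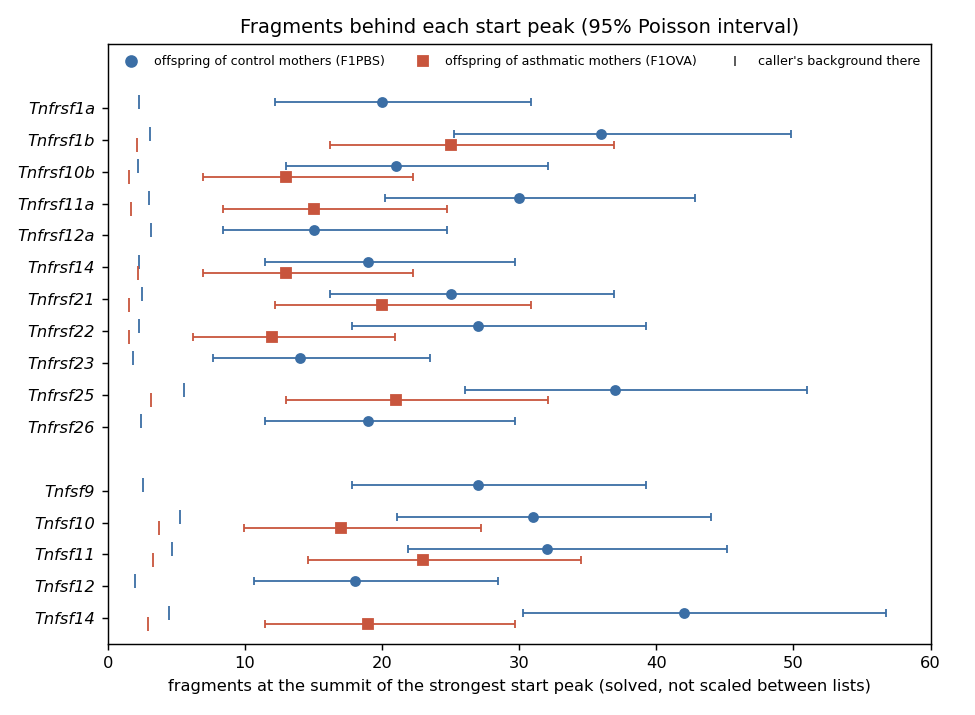
Fragments at the summit of each family gene's strongest start peak (horizontal axis), solved from the deposited fold and −log10 p, with exact 95% Poisson intervals that cover counting error only, for F1PBS (blue circles) and F1OVA (red squares). Short vertical marks are the caller's background. Every gene in both lists has its F1OVA value to the left of its F1PBS value. The medians over start peaks drawn from each list apart were 16 in F1OVA and 25 in F1PBS.

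CpG content was not used in the choice of genes. It was taken as the observed over expected number of CpG in 500 bp on either side of the gene's 5′ end, where a value near 1 means no loss of CpG. The median was 0.545 over the 10 family genes in both lists (range 0.219 to 0.765), 0.503 over the 6 in F1PBS only (0.092 to 0.685) and 0.325 over the 12 in neither (0.194 to 0.714). Over all genes it was 0.762 for those in both lists, 0.661 for those in F1PBS only and 0.232 for those in neither. The ranges of the family's 3 groups overlap widely, and no test of these medians was made. Of the 7 family genes at 0.6 or above, 6 had a start peak in F1PBS (85.7%) and 4 in F1OVA (57.1%), beside 84.7% and 72.8% of all genes in that range. The 4 include Tnfrsf22, at 0.607, whose F1OVA peak is the repeat-masked one at an internal start, away from the 5′ end measured here. Of the 21 under 0.6, 10 had one in F1PBS (47.6%) and 6 in F1OVA (28.6%), beside 23.6% and 17.8% of all genes.

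Several genes went against the general relation of CpG content to the mark. Tnfrsf19 (TROY), at 0.714, had no start peak in either list, and its nearest peak to a start was 13989 bp away in F1PBS. Tnfrsf26, at 0.092, had 2 in F1PBS. Tnfsf10 at 0.219, Tnfrsf14 at 0.246 and Tnfsf14 at 0.311 had start peaks in both lists. The receptors Tnfrsf11a at 0.765 and Tnfrsf21 at 0.753 were the richest of the family and were in both lists. The 6 ligands without a peak lay between 0.194 in Tnfsf13 and 0.339 in Tnfsf18.

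**Figure D5:**
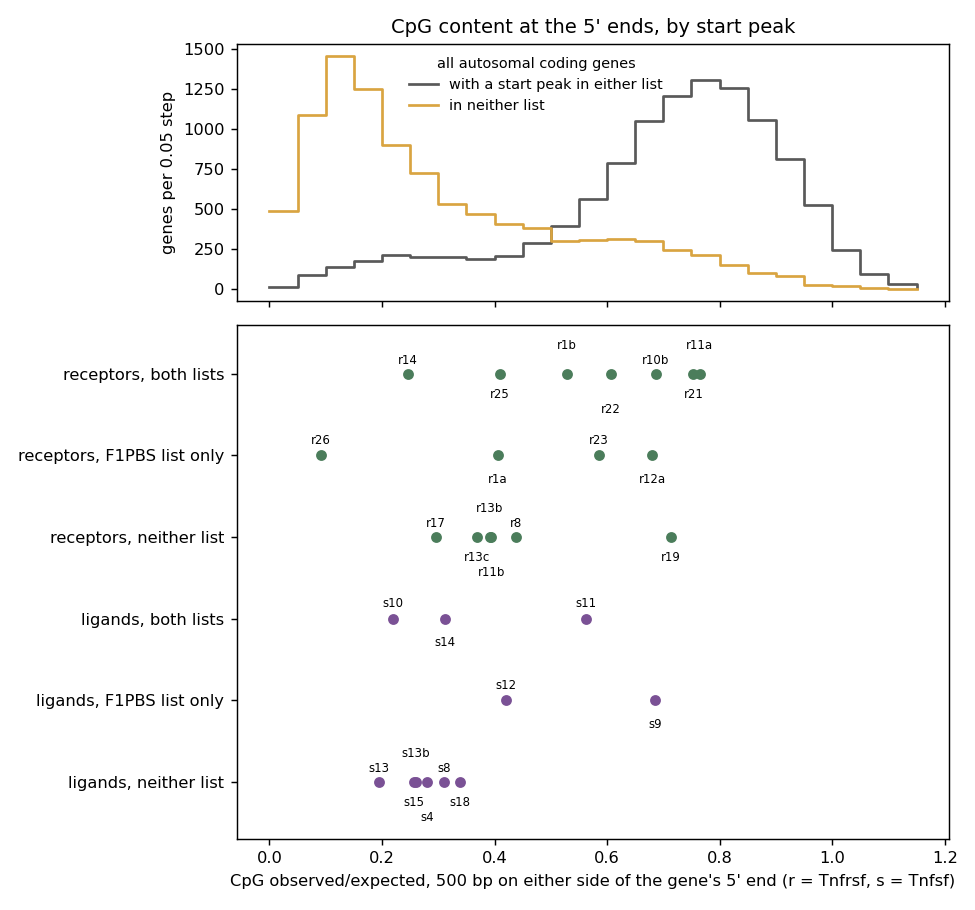
CpG observed over expected within 500 bp of the gene's 5′ end (horizontal axis) for all autosomal protein-coding genes with and without a start peak (upper panel, genes per step of 0.05) and for each family gene by class and list (lower panel, r for Tnfrsf and s for Tnfsf). The ligands in neither list all lie at or under 0.339, while Tnfrsf19 at 0.714 is the one family gene in neither list that lies above 0.6.

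Among the genes without a start peak were the B cell receptors Tnfrsf13b (TACI), Tnfrsf13c (BAFF receptor) and Tnfrsf17 (BCMA) and both of their ligands, Tnfsf13 (APRIL) and Tnfsf13b (BAFF). The decoy receptor Tnfrsf11b (osteoprotegerin) and Tnfrsf8 (CD30) had none either. The co-stimulatory ligands Tnfsf4, Tnfsf8, Tnfsf15 and Tnfsf18 also had none, and their nearest peaks lay 25586 bp, 44350 bp, 71430 bp and 63772 bp away in F1PBS. Among these 12 genes, the peak closest to the limit of 1000 bp was 3631 bp from Tnfsf13 in F1OVA and 3651 bp in F1PBS, and lay at starts of Senp3 and of the antisense gene Tnfsf13os. Among all family genes, the peaks just outside the limit were those in Tnfsf10, 1562 bp from its nearest start in F1PBS and 1689 bp in F1OVA. For Tnfrsf17 the nearest peak, 9106 bp away in F1PBS, lay at the start of Snx29. Inside the limit, the farthest start peaks were those of Tnfsf10 at 878 bp and Tnfsf11 at 792 bp, both in F1OVA, and each gene also had a nearer one.

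Genes that neighbour each other on a chromosome did not always share their state. Tnfrsf26, Tnfrsf22 and Tnfrsf23 lie in a row on chromosome 7, with 6.08 kb and 16.1 kb between them, and all had an F1PBS peak at a 5′ or internal start. In F1OVA, Tnfrsf22 had its peak at an internal start and the other two had none. Tnfrsf1b, high in both lists, is 20.3 kb from Tnfrsf8, which had no peak. Tnfsf12 is 465 bp from Tnfsf13 and had a peak in F1PBS where Tnfsf13 had none. Tnfsf9 and Tnfsf14 lie 81.7 kb apart on chromosome 17 in opposite directions, and both had an F1PBS peak. Tnfsf4 and Tnfsf18, 76.2 kb apart, and Tnfsf15 and Tnfsf8, 86.2 kb apart, had none.

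Set out as 15 known ligand and receptor pairs within the family, 11 pairs had the same state on both sides, or 10 with Tnfrsf22 counted by its 5′ end alone. In 4 of them both genes were in both lists, namely Tnfsf10 with Tnfrsf10b and with Tnfrsf22, Tnfsf11 with Tnfrsf11a, and Tnfsf14 with Tnfrsf14, of which the pair with Tnfrsf22 rests on its repeat-masked internal peak. Tnfsf12 and its receptor Tnfrsf12a were both in F1PBS only. In 6 pairs neither gene was listed, 5 of them among APRIL, BAFF and their B cell receptors and 1 being Tnfsf8 with Tnfrsf8. Of the other 4, Tnfsf15 had no peak while its receptor Tnfrsf25 was in both lists. Tnfsf10 and Tnfsf11 were in both lists while the decoy Tnfrsf11b, which binds them, was in neither, and Tnfrsf23 was in F1PBS only. The pairs were listed after the state of each gene had been seen and share members, so they are a description and not independent counts.

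Of 12 superfamily genes with other symbols, 4 had a start peak in F1PBS and 4 in F1OVA (33.3% each, interval 9.92 to 65.1%), where 52.5% and 43.7% of all genes did. Fas, Ltb and Relt were in both lists. Lta (lymphotoxin α) was in F1PBS only, with a −log10 q of 6.63 and 22 fragments. Tnf itself was in F1OVA only, with a peak of 175 bp, a −log10 q of 4.95 and 14 fragments, at percentile 10.4. Cd27, Cd40, Cd70, Edar, Fasl, Ltbr and Ngfr had none. Of the adaptors and enzymes downstream of the receptors, 21 of 21 had a start peak in F1PBS (interval 83.9 to 100%) and 18 of 21 in F1OVA (85.7%, 63.7 to 97.0%). Most of them, 17 of 21, had a CpG observed over expected of 0.6 or above, a range in which 84.7% of all genes had a start peak in F1PBS and 72.8% in F1OVA. Of these 17, all had one in F1PBS and 15 in F1OVA. Map3k14 (the NF-κB-inducing kinase), Traf1 and Traf3 were in F1PBS only. Among them Tradd ranked highest in F1PBS, at percentile 88.0, and Tnfaip3 (the deubiquitinase A20) lowest, at 5.52. In F1OVA Map3k7 (the kinase TAK1) ranked highest, at 98.6, by a peak at another start than its F1PBS peak, and Traf5 lowest, at 2.71.

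Short sequence patterns in the same 1000 bp around each 5′ end were counted on both strands, with overlaps between patterns allowed. A κB-like pattern, GGG and CC with any 5 bases between them, was found in 24 of 28 family genes and in 83.9% of all genes. TGANTCA, the pattern bound by AP-1, was found in 8 of 28 and in 18.8% of all genes. TATAAA was found in 9 of 28 and in 32.2% of all genes. Of the 16 genes with a start peak in either list, 13 held the first pattern, 4 the second and 5 the third. A match is a run of letters and not a measured binding site.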

How the data were processed

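H3K4me3 CATCH-seq was analysed for 1 library of lung ILC2s per group. Per the study's methods, reads were trimmed with Trim Galore and Cutadapt, aligned to GRCm38 with Bowtie 2 and freed of PCR duplicates. The peak caller, its threshold and its control are not given in the sources used here, and the study's reporting summary says that peak calling was not done. For each peak the authors deposited a score, a −log10 p, a −log10 q (of a p-value and a q-value) and a fold. The fold is a ratio of summit signal to the background the caller took, per the deposited values, and nearly all scores equal the −log10 q times 10 without its decimals. None of these is scaled between lists, so peaks were ranked within a list only. The total read depth is unknown from peak lists.

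Start peaks were those within 1000 bp of any transcript start in GENCODE M21, and shared peaks overlapped by at least 1 bp. Fragments at summits were solved from fold and −log10 p under a Poisson model, assuming calling without a control. Shares have exact Clopper-Pearson 95% intervals and fragments exact Poisson ones, covering counting error only. Promoters and masked repeats came from RefSeq on GRCm38.p6. Placement of peaks and the solving of fragments were tested on simulated data. The simulated fragments followed the same Poisson model, so this could not test whether a control was used in calling. Python 3.11.15 with numpy 2.4.6, pandas 2.3.3 and scipy 1.17.1 was used.

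The genes, the lists of pathway genes and markers and the alternatives were chosen with earlier results of these data known. Every family gene was accounted for, with more detail for those in 1 list only, those with several start peaks and those ranked highest and lowest. Pathway genes were named if in 1 list only, in neither, or ranked highest or lowest. With 1 library per group no test between groups was made.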

Additional observations from a re-analysis of the deposited data

How the results depend on the processing

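No paired analysis was possible because each group had a single library. Of 84 values under another setting, 69 stayed within 1.5 times the reported value and the limit set for each, and the others follow. When each list was kept to its 10000 peaks of highest −log10 p, receptors with a start peak were 5 in F1PBS and 2 in F1OVA, ligands 3 and 0, pathway genes 15 and 4, where 33.8% and 9.82% of all genes had one, and start peaks overlapping the other list 2 of 8 and 2 of 2, where 25.0% and 88.3% of all start peaks did. Overlaps of at least 50% of both peaks numbered 6 of 19 in F1PBS and 6 of 14 in F1OVA, where 48.2% and 60.3% of all start peaks had one. Ranked against every peak of the list, F1PBS medians were 73.5 for receptors and 81.0 for ligands, and by width the F1OVA medians were 78.6 for ligands and 73.2 for receptors. By fold the F1OVA median of ligands was 20.9. Leaving out peaks whose summit has exact copies elsewhere, chosen after seeing the data, left 6 receptors in F1OVA, without Tnfrsf22, and 7 genes in F1PBS only. Only family peaks were left out, so these counts have no like share of all genes and cannot be set against the background. Limits of 500 or 2000 bp, a −log10 q of at least 5, the gene's 5′ end or coding transcripts alone kept each count of genes with a start peak within 1.5 times. A like count did not mean the same genes. Among the 10000 peaks, the 6 in F1PBS only were Tnfrsf11a, Tnfrsf22, Tnfrsf25, Tnfsf11, Tnfsf14 and Tnfsf9, and only Tnfsf9 was so in the full lists. At a −log10 q of at least 5 they numbered 7, without Tnfrsf12a and with Tnfrsf14 and Tnfsf10. The shares of all genes in F1PBS only were not counted at these settings.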

Other observations

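Away from the starts, 5 of the 28 genes held peaks in their bodies in either list, where 20.0% of all autosomal protein-coding genes did. There were 4 such genes in F1PBS and 4 in F1OVA, beside 15.4% and 17.8% of all genes. Tnfsf10 had 2 in F1PBS and 1 in F1OVA, Tnfrsf11a 1 and 2, Tnfrsf1b 1 in each list, Tnfrsf23 1 in F1PBS, and all of these lay wholly in masked repeats with between 75 and 6113 exact copies of the summit elsewhere. Tnfrsf19, which had no start peak, held 2 intronic peaks in F1OVA and none in F1PBS. The first (chr14:61003279-61003555) had no masked bases, 2 exact copies of its summit elsewhere, a fold of 8.18, a −log10 q of 12.6 and 20 fragments. The second (chr14:61021218-61021385) had 40.5% masked bases, no exact copy, a −log10 q of 6.86 and 14 fragments.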
